A study of Mus musculus with 2 samples.

Results

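The transforming growth factor beta (TGF-beta) and bone morphogenetic protein (BMP) system was described through 38 of the 27962 gene names on the array: 17 ligand or ligand-subunit genes, 10 receptors, 4 latent TGF-beta binding proteins, 6 antagonists and the protease Bmp1. They were taken from a fixed list of symbols, and all 38 had probes on the array. This list and the other gene lists below were chosen with earlier results of these data known. Panc02, a pancreatic carcinoma line of the mouse, was injected under the skin of C57BL/6 mice. The mice were housed from 3 weeks of age in a standard environment, which is ordinary caging, or in an enriched environment, which offers more stimulation, and stayed there for 5 weeks after the injection. Tumour RNA of 6 mice made up each pool, with 1 pool and 1 one-colour Agilent array per housing. Both groups were of the same strain and carried the same tumour line, with no drug or genotype between them, and the labels call the tissue a xenograft although line and host are both mouse. With 1 array of pooled RNA per housing there was no spread between mice and no test between the housings, so the values below describe 2 pools.

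TGF-beta family ligands are secreted dimers that bring type I and type II receptor kinases together, and the type I kinase then phosphorylates SMAD proteins that enter the nucleus. TGF-beta itself is secreted in a latent form held in the matrix by latent binding proteins, while BMP and activin signals are limited outside the cell by antagonists such as gremlin, noggin, chordin and follistatin. In pancreatic tumours TGF-beta is known both as a brake on epithelial growth and as a driver of the fibrous stroma.

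Levels are log2 intensities of a probe, with the 75th percentile of all spots on the same array set to 0, and differences were taken as enriched minus standard. Levels of different probes are not comparable, because probes differ in how brightly they report, so only differences are set side by side. A gene counted as measured if at least 1 of its probes passed the background mark of the scanner in each pool, as 37 of the 38 members and 20254 genes in all did. Bmp5 was the exception. Over all genes measured the median difference was 0.03, and 5.77% lay 2-fold or more above and 9.57% 2-fold or more below the standard pool, 15.3% in either direction. Among the 37 measured members, Grem1 and Ltbp2 were past 2-fold on the higher side and Bmp6, Bmp7 and Tgfb3 on the lower side. These 2 and 3 genes are 5.41% and 8.11% of the members, close to the shares over all genes. By any amount, 16 members were higher, against 52.0% of all genes, and 21 lower, against 48.0%. At 1.5-fold, 5 members were higher and 7 lower, against 15.0% and 18.2% of all genes. The members together had a median difference of -0.10.

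The classes differed in how far their members lay from 0. The 16 measured ligands ran from -2.74 to 0.74 with a median of -0.33, and 10 of them were lower. The 10 receptors ran from -0.22 to 0.43 with a median of -0.08. The 4 latent binding proteins had a median of 0.48, and the 6 antagonists a median of -0.03 with Grem1 far above the others. No test of a difference between the classes was possible.

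**Figure D1:**
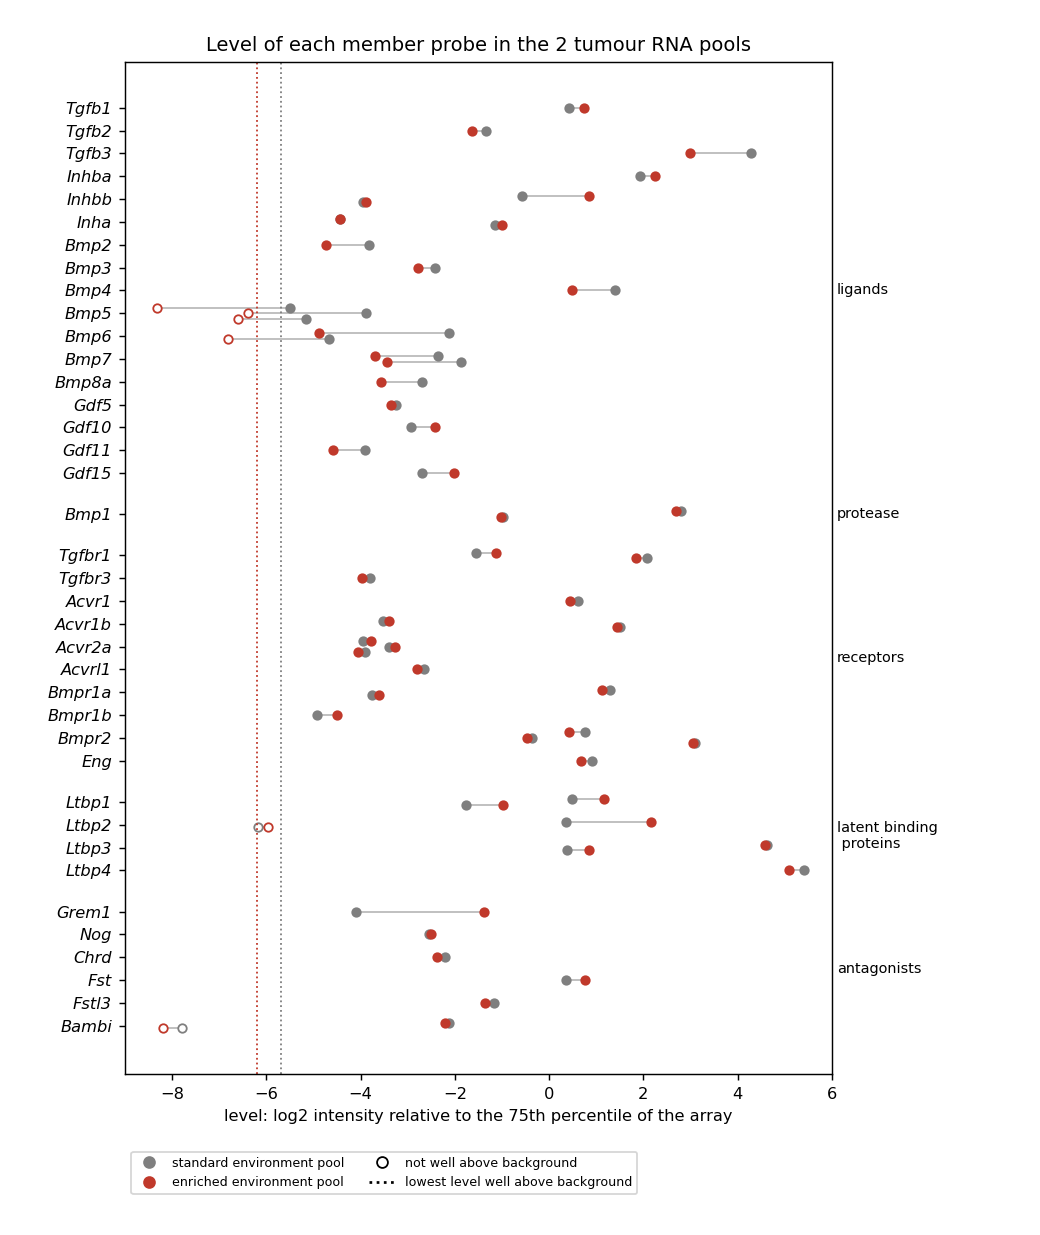
Level of every probe of the 38 members, as log2 intensity with the array's 75th percentile at 0, in the standard (grey) and enriched (red) environment pool; a line joins the 2 values of a probe, open circles were not well above background, and dotted lines mark the lowest level that was. Bmp6 moved from -2.13 to -4.87 and Grem1 from -4.10 to -1.37, while the 2 points of most receptor probes lie almost on each other.

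The promoter windows of 4 members are shown because these genes lay far apart in opposite directions: Grem1 and Ltbp2 were the members at least 2-fold higher, and Bmp6 and Bmp4 are BMP ligands that were lower. Each line is the 250 bases before a transcription start in the RefSeq table of build GRCm38.p6, read 5′ to 3′ on the strand of the gene. Capitals mark CAGAC or its complement GTCTG, the letters of the SMAD box, and GGCGCC, a GC-rich sequence also bound by SMADs, both searched on both strands.
Grem1: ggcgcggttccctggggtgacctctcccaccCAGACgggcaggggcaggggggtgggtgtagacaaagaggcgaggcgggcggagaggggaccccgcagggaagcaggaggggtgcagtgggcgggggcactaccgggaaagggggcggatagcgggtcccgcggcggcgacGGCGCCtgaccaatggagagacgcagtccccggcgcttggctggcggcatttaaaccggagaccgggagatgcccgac
Ltbp2: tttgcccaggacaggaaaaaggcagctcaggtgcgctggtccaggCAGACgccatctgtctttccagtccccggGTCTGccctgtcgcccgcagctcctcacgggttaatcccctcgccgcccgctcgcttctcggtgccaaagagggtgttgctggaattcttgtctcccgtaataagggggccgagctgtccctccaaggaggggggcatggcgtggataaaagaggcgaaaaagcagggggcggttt
Bmp6: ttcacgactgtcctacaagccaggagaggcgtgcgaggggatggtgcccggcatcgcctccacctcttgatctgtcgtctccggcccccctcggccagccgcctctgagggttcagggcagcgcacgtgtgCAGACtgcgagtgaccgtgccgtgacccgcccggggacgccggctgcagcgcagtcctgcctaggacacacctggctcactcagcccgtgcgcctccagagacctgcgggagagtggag
Bmp4: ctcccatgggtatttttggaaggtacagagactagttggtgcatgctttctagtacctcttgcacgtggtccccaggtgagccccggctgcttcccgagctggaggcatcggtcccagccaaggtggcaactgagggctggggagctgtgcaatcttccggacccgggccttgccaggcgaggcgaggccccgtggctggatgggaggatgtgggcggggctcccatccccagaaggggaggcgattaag

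The windows lie at chr2:113758649-113758898 for Grem1, chr12:84876492-84876741 for Ltbp2 and chr14:46390670-46390919 for Bmp4, all on the minus strand, and at chr13:38345466-38345715 on the plus strand for Bmp6. The Grem1 window held 1 CAGAC and 1 GGCGCC, the Ltbp2 window 2 CAGAC, the Bmp6 window 1 CAGAC, and the Bmp4 window neither. CAGAC stood in 42.2% of all 32851 windows of the table and GGCGCC in 9.59%. In the 34 windows of the 27 members with an entry, the shares were 55.9% and 20.6%. These shares were not adjusted for base composition. The median GC content of all windows was 52.4%, while member windows ran from 42.8% to 85.6% and those shown from 61.6% to 72.0%. Windows of 1 gene can also overlap, as those of Ltbp4 with GGCGCC do, so 1 site can count more than once. A match describes the letters only, and binding was not measured here.

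BMP ligands, a group formed after the values were seen, were lower in the enriched pool in each of the 6 that were measured. Their median was -0.92, whereas 48.0% of all genes lay below 0. Of the whole class of 16 measured ligands 10 were lower, with a median of -0.33. Bmp6, a ligand of the group of Bmp5, Bmp7 and Bmp8a that is also known for controlling iron balance in the liver, was at -2.13 under standard and -4.87 under enriched housing. This is a difference of -2.74, or 6.68-fold. The probe of that value lies on chromosome 13 from 37918503 to 37918562 on mm7, the build of the array design. A second Bmp6 probe, whose span of 15144 bases on mm7 is far longer than a probe, was at -4.67 in the standard pool and not well above background in the enriched pool, which makes it at least 2.90-fold brighter in the standard pool. Every Bmp6 probe was thus brighter in the standard pool.

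Bmp7, which shapes kidney and skeleton in the embryo, was measured by 2 probes on chromosome 2. The first, printed in 10 spots on each array, was at -2.35 ± 0.08 in the standard pool and at -3.69 ± 0.09 in the enriched pool (SD over 10 spots). The second was at -1.86 and -3.43. Both probes were lower in the enriched pool, by -1.34 and -1.57, and the gene by -1.45 or 2.74-fold. The SD over spots covers the printing and scanning of 1 array and not the spread between mice.

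Bmp2 and Bmp4 are close relatives that pattern mesoderm and induce bone. Bmp4 was at 1.41 ± 0.04 in the standard pool and at 0.49 ± 0.07 in the enriched pool (SD over 10 spots each), a difference of -0.92 or 1.89-fold. Bmp2 was at -3.82 ± 0.05 over 8 usable spots in the standard pool and at -4.74 ± 0.17 over 10 spots in the enriched pool, a difference also of -0.92. Both differences were larger than the SDs over spots, and both stayed under the 2-fold threshold. Bmp8a, of the Bmp7 group, was at -2.71 and -3.56, a difference of -0.85. Bmp3, which opposes the bone-forming members, was at -2.43 and -2.78, a difference of -0.35 and the smallest among the BMP ligands measured.

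Bmp5, another ligand of the Bmp7 group, was well above background in the standard pool only. Its 3 probes were at -3.89, -5.16 and -5.49 there and at -6.39, -6.60 and -8.32 in the enriched pool, where the lowest level well above background was -6.20. Set against the higher of that limit and the probe's own signal, they were at least 4.96-fold, 2.06-fold and 1.64-fold brighter in the standard pool. Bmp5 therefore lay on the same side as the 6 measured BMP ligands, but the levels of the dimmer 2 probes were near the limit of -5.68 in the standard pool. At a threshold of 1.5-fold, 5 of the 6 measured BMP ligands, grouped after the values were seen, were lower, against 18.2% of all genes.

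TGF-beta ligands did not share a direction. Tgfb3, an isoform needed for palate and lung development, was at 4.28 under standard and 2.98 under enriched housing, a difference of -1.30 or 2.46-fold by 1 probe on chromosome 12 from 84058334 to 84058393 on mm7. Tgfb1, the isoform best known from immune cells and fibrosis, was at 0.42 ± 0.04 over 10 spots in the standard pool and at 0.74 ± 0.05 over 9 spots in the enriched pool, a difference of 0.31. Tgfb2 was at -1.34 and -1.64, a difference of -0.30. So Tgfb1 and Tgfb3 lay on opposite sides, and only Tgfb3 of the 3 passed 2-fold.

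The activin and inhibin subunits lay at or above 0. Inhba encodes the subunit of activin A, a ligand that signals through the same SMADs as TGF-beta, and was at 1.94 and 2.24, a difference of 0.30. Inhbb encodes the subunit of activin B, and its 2 probes differed: 1 was at -0.57 in the standard and 0.84 in the enriched pool, a difference of 1.41, and the other at -3.95 and -3.88, a difference of 0.07. They lie on chromosome 1 of mm7, from 119276025 to 119276084 and from 119278359 to 119278418. Their mean of 0.74 does not pass 2-fold, and the gene cannot be called from probes that disagree so far. Inha, whose product pairs with these subunits to form inhibin, an activin opponent, had 1 probe at -4.44 in each pool and 1 at -1.14 and -1.01, differences of 0.00 and 0.13.

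Growth and differentiation factors were split. Gdf15, a stress-induced cytokine that reaches a receptor in the hindbrain and curbs appetite, was at -2.70 under standard and -2.01 under enriched housing, a difference of 0.69. Gdf10, a relative of Bmp3, was at -2.93 and -2.42, a difference of 0.50. On the other side, Gdf11, which patterns the body axis, was at -3.90 and -4.58, a difference of -0.68, and Gdf5, a joint-forming factor, was at -3.24 and -3.36, a difference of -0.12. None of the 4 reached 2-fold. Bmp1, despite its name a metalloprotease that trims procollagen and cleaves chordin, was at 2.81 and 2.69 by 1 probe and at -0.98 and -1.03 by the other, differences of -0.12 and -0.04.

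**Figure D2:**
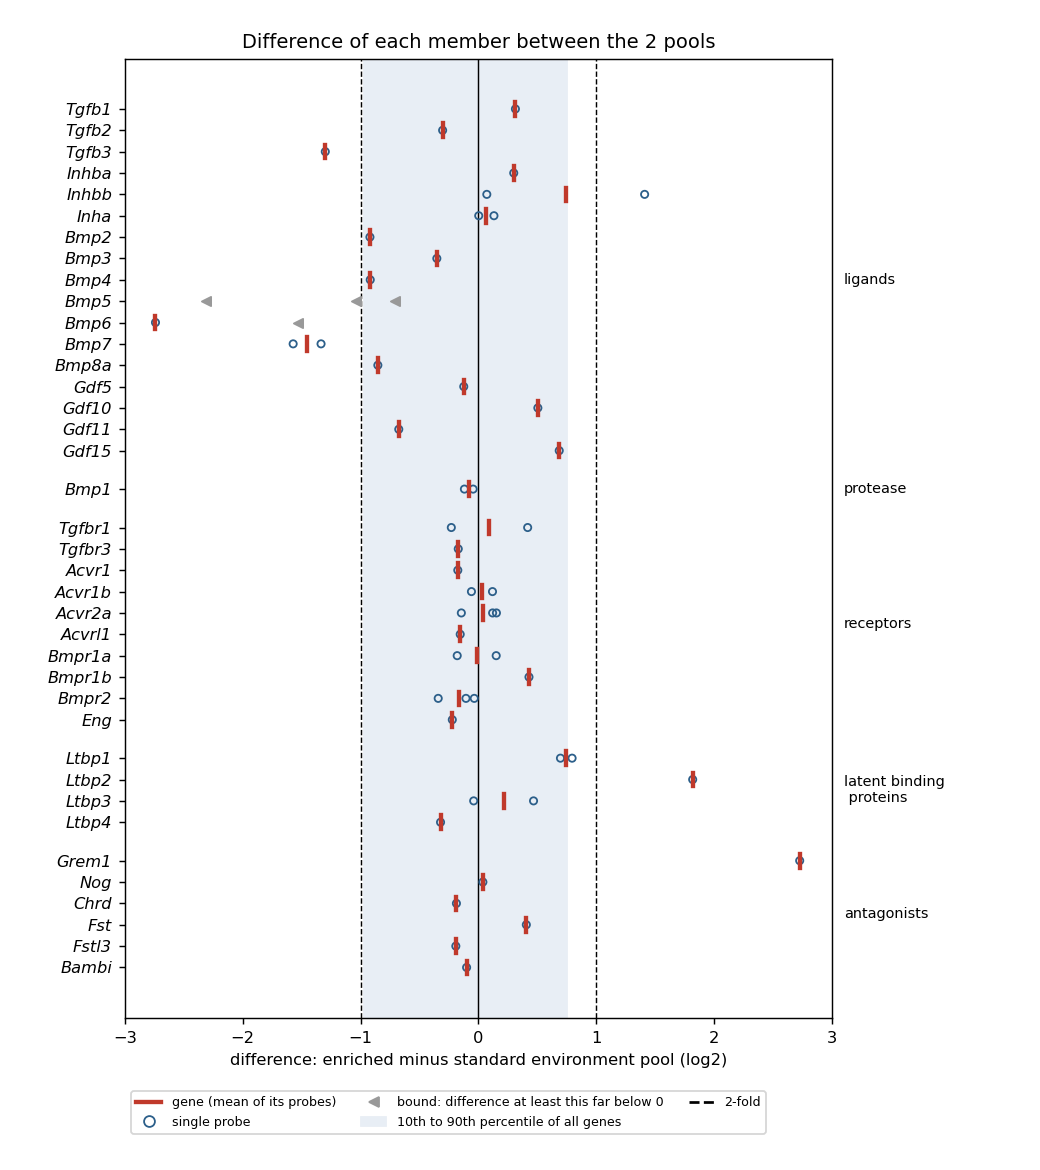
Difference of each member, enriched minus standard environment pool on the log2 scale; red bars are genes, circles single probes, grey arrows bounds for probes not well above background in the enriched pool, dashed lines 2-fold, and the shaded band the 10th to 90th percentile of all genes, from -0.97 to 0.75. Bmp6, Bmp7, Tgfb3, Ltbp2 and Grem1 lie beyond 2-fold, and the 10 receptors lie between -0.22 and 0.43.

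Receptors of the member list differed little between the pools. Outside it, as given below, Tgfbr2 and Acvr2b also differed little, while Acvr1c and Amhr2 differed widely. All 10 receptors of the member list lay within 0.5 log2 units of 0, compared with 60.3% of all genes measured. None was 1.5-fold apart, though under quantile normalization and in the series' own log2 table Bmpr1b was. Among the type I receptors, the TGF-beta receptor Tgfbr1 went from -1.55 to -1.13 by 1 probe and from 2.08 to 1.85 by the other. These differences of 0.42 and -0.23 have a mean of 0.09. The activin receptor Acvr1b had levels of -3.52 and -3.40 by its dimmer probe and 1.51 and 1.45 by the other, differences of 0.12 and -0.06. The BMP receptor Bmpr1a had levels of -3.75 and -3.60 by 1 probe and 1.30 and 1.12 by the other, differences of 0.15 and -0.18. Probes of these 3 genes lay on both sides of 0, so no direction can be given. Acvr1, which mainly carries BMP signals, was at 0.62 and 0.44, a difference of -0.17. Bmpr1b was at -4.93 and -4.50, and its difference of 0.43 was the furthest from 0 among the receptors and came from a dim probe. It was -0.06 with the normexp background, 0.67 after quantile normalization and 0.71 in the series' own log2 table, so Bmpr1b has no settled direction.

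Type II receptors of the member list were as close. Bmpr2, the main type II receptor for BMP ligands, was at 0.76, -0.36 and 3.08 by its 3 probes under standard and at 0.42, -0.47 and 3.05 under enriched housing. The probes differed by -0.34, -0.11 and -0.04, all lower. Acvr2a, which binds activins and some BMP ligands, was at -3.94, -3.40 and -3.90 under standard and at -3.79, -3.28 and -4.05 under enriched housing. Its 3 probes differed by 0.15, 0.12 and -0.14, without a common direction. The coreceptor Tgfbr3, or betaglycan, which presents TGF-beta to its receptors, was at -3.80 and -3.97, a difference of -0.17. Acvrl1 and Eng, the receptor and coreceptor through which endothelial cells read circulating BMP ligands, were both slightly lower. Acvrl1 was at -2.65 and -2.81, a difference of -0.15, and Eng at 0.90 and 0.68, a difference of -0.22. Endothelial marker genes lay further below 0 than these receptors, at a median of -0.68 with 12 of 12 lower and a share of the summed signal of 0.0636% under standard and 0.0453% under enriched housing. The part of endothelial cells in the Acvrl1 and Eng values was not tested, and in bulk tumour RNA fewer cells of a type cannot be told apart from less RNA per cell.

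Latent binding proteins differed from each other. Ltbp2, a microfibril protein that, unlike its relatives, does not hold latent TGF-beta, was at 0.35 under standard and 2.17 under enriched housing, a difference of 1.82 or 3.53-fold. The probe spans 82783519 to 82783578 of chromosome 12 on mm7, and the other Ltbp2 probe was not well above background on either array. Ltbp1, which tethers latent TGF-beta to the matrix, was higher by both its probes, at -1.77 and -0.97 for the first and at 0.48 and 1.17 for the second, with a mean difference of 0.75. Ltbp3 was at 4.63 and 4.59 by 1 probe and at 0.38 and 0.85 by the other, differences of -0.04 and 0.47. Ltbp4, which binds elastic fibres, was at 5.41 and 5.09, a difference of -0.32. Ltbp1 and Ltbp2 were thus higher, Ltbp4 lower and Ltbp3 without a direction.

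Among the antagonists, Grem1 stood alone. Gremlin 1 binds and blocks Bmp2, Bmp4 and Bmp7, and in the gut and in tumours it is known as a product of fibroblasts. Its probe, on chromosome 2 from 113599308 to 113599367 on mm7, was at -4.10 under standard and -1.37 under enriched housing, a difference of 2.73 or 6.62-fold. The lowest level well above background on the standard array was -5.68, so the size of this difference rests on a dim spot. Fst, or follistatin, which binds activins, was at 0.35 and 0.76, a difference of 0.41. Noggin, a BMP antagonist encoded by Nog, was at -2.55 and -2.51, a difference of 0.04. Chordin, encoded by Chrd, was at -2.20 and -2.39, and the follistatin relative Fstl3 at -1.18 and -1.37, each a difference of -0.19. Bambi, a receptor without a kinase that dampens the signal, was at -2.12 ± 0.04 over 9 spots in the standard pool and at -2.22 ± 0.10 over 10 spots in the enriched pool, a difference of -0.10 that is no larger than the SD over spots in the enriched pool. Its other probe was not well above background on either array.

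Markers of other cell types also differed between the pools. Skeletal muscle markers were lower in 16 of 16 cases at a median of -7.91, and took 4.34% of the summed signal under standard and 0.0921% under enriched housing. Erythroid markers were lower in 6 of 6 measured cases at a median of -5.59. Fibroblast and matrix markers had a median of 1.35, with 9 of 17 past 2-fold on the higher and 3 on the lower side, and took 0.498% and 1.42% of the signal. Carcinoma epithelium markers were measured in 14 of 14 cases with a median of 1.86, and 12 were past 2-fold on the higher side. They took 0.278% of the signal under standard and 1.15% under enriched housing. Whether their RNA came from the injected line was not tested. Macrophage markers had a median of 0.09, pericyte and smooth muscle markers -0.16, or -0.84 by the brightest probe per gene, and bone and cartilage markers -0.53 over 5 genes that ran from -6.82 for Bglap1, the osteoblast product osteocalcin, to 1.24 for the cartilage collagen Col2a1. The 2 probes of Col2a1 lay on opposite sides of 0, at -0.38 and 2.86, so it has no direction. The bone matrix genes Ibsp and Dmp1 were well above background in the standard pool only, at least 15.0-fold and 5.32-fold brighter there. Markers of pancreatic acini and islets took 0.0014% and 0.0013% of the signal, and 3 of the 11 on the array were not well above background on either. The part of muscle, blood, bone, fibroblast or carcinoma RNA in the lower BMP ligands and Tgfb3, or in the higher Ltbp2 and Grem1, was not tested.

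Of 48 further extracellular genes of the pathway on the array, 37 were measured and 6, or 16.2%, lay past 2-fold on each side, against 5.77% of all genes on the higher and 9.57% on the lower side. Their median was -0.35, and -0.16 after quantile normalization of the arrays. On the higher side were the fibrillins, the microfibril proteins that anchor latent binding proteins and BMP ligands. Fbn2 was at -5.61 and -1.47, a difference of 4.14 from a standard level at the limit of detection, and Fbn1 differed by 2.46 over 2 probes. Antagonists outside the member list lay on both sides, with the chordin relative Chrdl1 at 2.24 but Chrdl2 at -2.65. The type I receptor Acvr1c, which serves activin B and nodal and is abundant in fat cells, differed by 2.21 over 3 probes (SD 0.12). Adipocyte markers had a median of 1.57, with 5 of 8 past 2-fold on the higher side. In the same list Ucp1, the uncoupling protein of brown fat, differed by -8.86 and Cidea, a lipid droplet protein, by -5.91, and the part of fat cells in the Acvr1c value was not tested.

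On the lower side were Gdf1 at -4.67, the anti-Müllerian hormone receptor Amhr2, from 0.72 to -2.28, Nodal at -1.61, the integrin subunit Itgb6, which activates latent TGF-beta, at -1.25 and the proteoglycan Dcn at -1.03. Gdf1 is known to share a transcript with a ceramide synthase gene, so its probe may not report the growth factor alone. Mstn, which encodes myostatin and is named Gdf8 in the files, and the BMP coreceptor gene Hfe2 were well above background in the standard pool only, at least 62.1-fold and 194-fold brighter there. Both are known muscle products. Tgfbr2, the partner of Tgfbr1, differed by -0.35 over 3 probes, and Acvr2b by -0.001.

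Of 21 measured SMADs and intracellular regulators 1 passed 2-fold, the phosphatase regulator Ppp1r15a at -1.02, against 15.3% of all genes in either direction, and their median was 0.14. Within 0.5 log2 units of 0 lay 14 of the 21, near the 60.3% of all genes. Smad2, which carries the TGF-beta signal, differed by 0.52 and its partner Smad3 by -0.56 over 3 probes, while the shared Smad4 differed by -0.49 over 2 probes. The BMP-responsive Smad1 and Smad5 differed by 0.06 and 0.24. The inhibitory Smad6 and Smad7 differed by 0.67 and 0.36.

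Genes known to be induced by TGF-beta had a median of 0.84. Of 24 measured, 11 passed 2-fold on the higher side, against 5.77% of all genes, and 1 on the lower side. The list was chosen with earlier results of these data known, as was the list of BMP-induced genes below. The collagen crosslinker Loxl2 differed by 2.65 and the actin-binding Tagln by 2.21, each over 2 probes. Some classical targets, named after their values were seen, differed less, with Ctgf at 0.95, Skil at 0.36 and Pmepa1 at -0.10. The lower gene was Tpm1, a tropomyosin with muscle forms, whose 3 probes ran from -6.98 to 0.76, and the probes of Acta2, named for this reason, also split, from -2.09 to 1.02. The list shares Col1a1, Col1a2 and Postn with the fibroblast markers, and Ltbp2 is a member. Without the 3 shared genes the median was 0.67, with 8 of 21 past 2-fold on the higher side. The part of fibroblast RNA in this list, with or without the shared genes, was not tested.

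Genes known to be induced by BMP, of which 16 of 20 on the array were measured, had a median of -0.21. None passed 2-fold on the higher side and 4 did on the lower side, against 9.57% of all genes. The 4 were Hamp2 at -2.42, Atoh8 at -1.63, Tmem100 at -1.38 and Gata2 at -1.33. Hamp, named Hamp1 on the array and added here beside Hamp2, is also in the list. It was not well above background in either pool. The 2 probes of Tmem100 lay apart, at -2.08 and -0.68. Nog and Bambi, which are members, are also in this list. Id1, the best known BMP target and an inhibitor of differentiation factors, was at 0.97 and 0.60, a difference of -0.37 over 2 probes. Id3 differed by -0.22, Id4 by -0.24 and Id2 by 0.27. The Id genes, also named after their values were seen, stayed well under 2-fold. Endothelial markers had a median of -0.68, erythroid markers of -5.59 and fibroblast and matrix markers of 1.35. The part of endothelial, blood or other cells in the values of the BMP-induced genes was not tested.

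**Figure D3:**
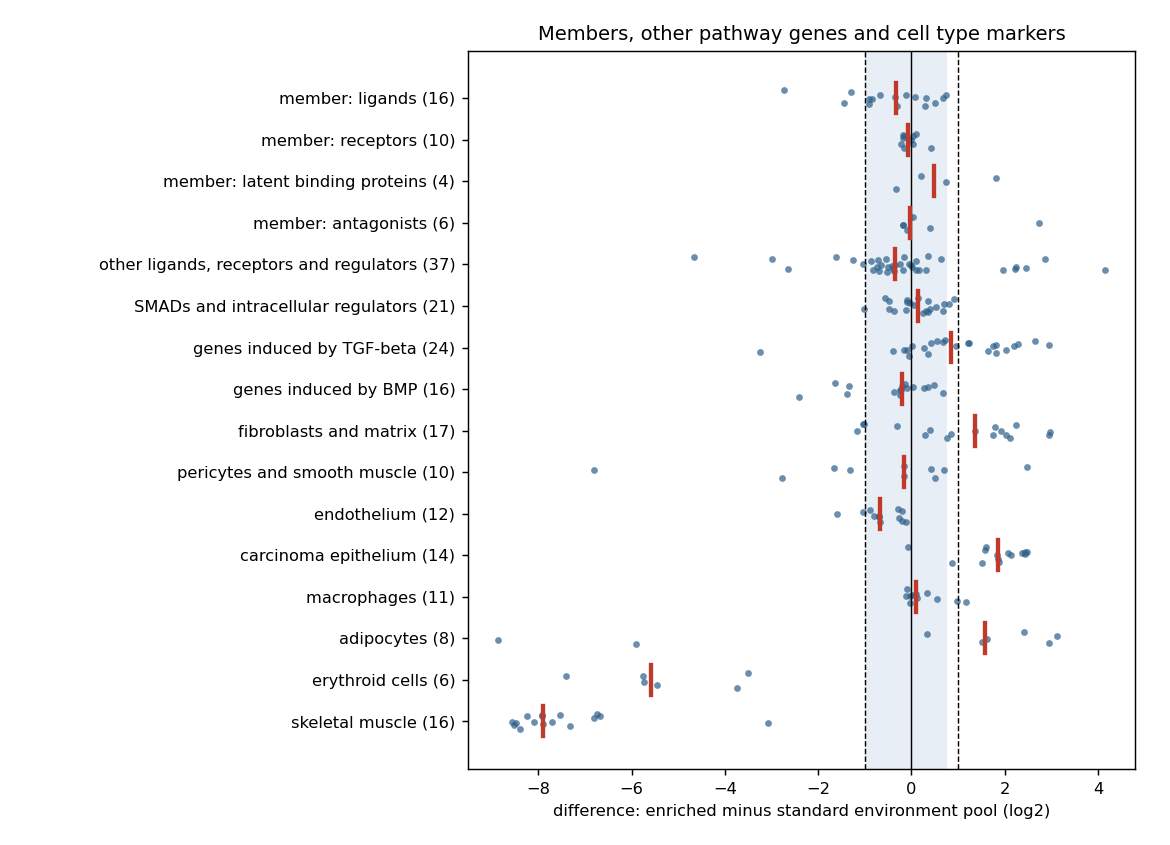
Differences, enriched minus standard environment pool on the log2 scale, of measured members by class, of other pathway genes and of cell type markers; points are genes, red bars medians, numbers in brackets genes measured, dashed lines 2-fold, and the band the 10th to 90th percentile of all genes. Genes induced by TGF-beta (median 0.84) lie to the right of those induced by BMP (-0.21), and muscle markers lie at -7.91.

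**Figure D4:**
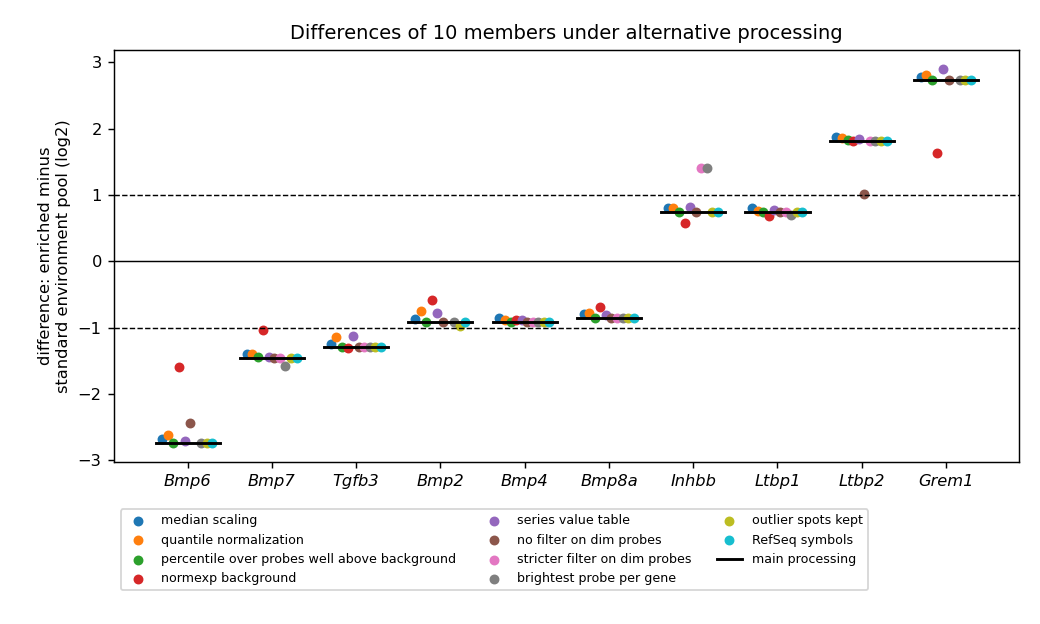
Difference of 10 members, enriched minus standard environment pool on the log2 scale, under the main processing (black bars) and 10 alternatives (coloured points, absent where a filter removed the gene); dashed lines mark 2-fold. Grem1 stays between 1.64 and 2.90 and Bmp6 between -2.74 and -1.59, while Inhbb passes 2-fold only when its dim probe is left out.

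The 5 members past 2-fold kept their direction under each alternative that gave them a value. With the normexp background correction Grem1 differed by 1.64 and Bmp6 by -1.59, and a stricter filter on dim probes removed both. Ltbp2 differed by 1.01 when its dim probe was averaged in.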

How the data were processed

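Total RNA pooled from 6 tumours per housing was labelled with Cy3, per the labels' protocols. The deposited scanner files give a background-corrected linear intensity per spot per the file headers, and the submitters' processing notes name Agilent Feature Extraction 10.7.1.1. A deposited table of 30319 log2 values, with the authors' later steps not stated in the labels or headers, served as an alternative. Its column medians were 8.54 and 8.56, its values correlated with the scanner values at r = 1.00, and its scaling and centring are unknown.

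Control spots (1639) and outlier spots (66 and 70) were left out, log2 of the processed intensity was taken minus the array's 75th percentile (753 and 984), and spots of a probe were averaged. Probes well above background on both arrays (30298 of 41174) were averaged per gene name. Of all spots 77.2% and 77.4% were well above background, and none was saturated. The number of arrays limits the precision. All 56 member probes had the same symbol in RefSeq (GRCm38.p6). The steps, run in Python 3.11.15 with limma 3.58.1 for normexp (offset 50), were tested on simulated data. By the rule for named genes, every member is given with its values on both arrays, or as a bound. Of the other lists, up to 6 genes per direction at least 2-fold apart were named by size, with receptors and SMADs. Genes outside this rule are marked in the text, and a few that it selects are not reported here. The members and lists were chosen with earlier results of these data known. Gene positions within exons or UTRs were not used here.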

Additional observations from a re-analysis of the deposited data

How the results depend on the processing

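With 1 array per housing no replicate could be left out, and no paired analysis was possible because each housing had 1 pool. The 10 alternatives of scaling, background, source, filter, probe choice and naming left the medians of receptors, latent binding proteins, antagonists and all members within 0.18 of their values, the median SD between probes of a gene. The ligand median was -0.12 under the stricter filter, which kept 13 ligands. The antagonist median lay between -0.12 and 0.02 and the receptor median between -0.16 and 0.01, so neither has a direction. At 1.5-fold instead of 2-fold, 5 members were higher and 7 lower. Inhbb passed 2-fold, at 1.41, under the stricter filter and with the brightest probe per gene. Under the stricter filter the 2 higher members were thus Ltbp2 and Inhbb. The series' own log2 table moved the median of all genes from 0.03 to 0.11. Precision for Grem1, Bmp5, Bmp6 and Bmp2 is limited by levels near background. The finer groups of ligands and receptors were chosen after seeing the data, and the BMP ligand median stayed between -0.95 and -0.78 under the 10 alternatives.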
